A study of Mus musculus with 27 samples.

Results

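The genes described are 10 genes that mark macrophages at the borders of the brain: Lyve1, Cd209b, Cd209f, Cd209g, Mrc1, Stab1, Cd163, Pf4, Cbr2 and F13a1. They were taken by symbol from the 55487 genes of the count table, with the GENCODE M21 annotation of the mouse genome build GRCm38. Lyve1 was chosen because its level was already known to be lower with the antibody in these same libraries, and the question was which of the other members followed it. The set was thus chosen by the values of the antibody comparisons, and these are given for the members as a description. The calls of the fit across all genes are listed for the members beside the share of all genes called, and nothing is read from them. All 10 members had enough counts to enter the fit across genes.

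Border macrophages lie in the meninges, in the perivascular spaces and in the choroid plexus, outside the tissue that microglia occupy. They take up proteins, lipids and debris from the cerebrospinal fluid and present antigen, and they are commonly divided into cells with high Lyve1 and low MHC class II and cells with the opposite pattern. The members include endocytic and scavenger receptors for sugars, hyaluronan and hemoglobin complexes, C-type lectins of the Cd209 family, and genes for a chemokine, a transglutaminase and a carbonyl reductase that these cells express.

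RNA-seq was performed on contralateral hippocampi and cortices of male C57Bl/6J wild-type mice, 8 weeks old, after infusion into the right lateral ventricle at 0.25 μl/hour for 14 days. Mice received α-IgLON5#1, antibodies against the neuronal surface protein IgLON5 purified from patient plasma, or the control antibody pCtrl, or PBS. The paper describes pCtrl as IgG from healthy serum, whereas the labels describe a nonreactive monoclonal human antibody, so the nature of the control antibody could not be settled here. The groups held 5 PBS, 4 pCtrl and 4 α-IgLON5#1 hippocampi and 5 PBS, 5 pCtrl and 4 α-IgLON5#1 cortices, 27 libraries from 14 mice, and mice are named here by the numbers in the sample labels.

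Total counts ranged from 19385642 to 58550621 per library. They were 19428512 to 32776892 in α-IgLON5#1 hippocampi, below the 39479753 to 52212204 of pCtrl hippocampi, and 29098828 to 58550621 in PBS hippocampi. The labels name neurons as the cell type, but the libraries are of whole tissue, and genes of microglia, endothelium and meningeal fibroblasts were counted in each of them. All 5 hippocampal markers were higher in PBS hippocampi than in PBS cortices, and 4 of 5 cortical markers were higher in the cortices, so the tissue labels matched their markers. The hippocampal markers summed to 265 to 455 CPM in PBS hippocampi, to 108 to 337 CPM in pCtrl hippocampi and to 262 to 391.8 CPM in α-IgLON5#1 hippocampi, and 0 of the 5 passed between α-IgLON5#1 and pCtrl. In hippocampi against pCtrl all 5 hippocampal markers had a positive log2 fold change, with a median of 0.65, and all 5 cortical markers a negative one, with a median of -0.44; against PBS the medians were 0.03 and 0.05. The part of these differences in the members' values was not tested. One α-IgLON5#1 mouse, mouse 9, stood apart in both tissues. Its library held the lowest value of the tissue for 16.1% of all tested genes in the hippocampus and for 10.8% in the cortex, the largest share among the α-IgLON5#1 libraries of either tissue. Its meningeal fibroblast genes, a list of 10 that includes Col1a1 and Dcn, summed to 64.7 CPM in the hippocampus and 84.0 CPM in the cortex, below every other library. CPM are counts per 1000000 counts of the library size after TMM scaling. Fold changes against pCtrl and correlations between members that rest on this mouse are given with and without it.

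The members lie on 8 chromosomes of GRCm38. Lyve1 is at chr7:110850607-110863239 on the minus strand, Mrc1 at chr2:14229392-14332057 on the plus strand, Stab1 at chr14:31139013-31168641 on the minus strand and Cd163 at chr6:124304656-124330527 on the plus strand. Pf4 is at chr5:90772435-90773383 on the plus strand, Cbr2 at chr11:120729489-120732114 on the minus strand and F13a1 at chr13:36867178-37050244 on the minus strand. The lectin genes are neighbors on chromosome 8, with Cd209b at chr8:3917655-3926844 and Cd209f at chr8:4102787-4105835, both on the minus strand, and Cd209g at chr8:4134098-4137707 on the plus strand. Nt5dc2 overlaps Stab1 on the other strand, and 2 antisense genes overlap F13a1. The library kit keeps the strand, but the strand setting of the counting is not given in the sources used here, so some reads of these genes may come from the other strand.

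Cd209f and Cd209g share sequence, which matters for how their reads were counted and for reading them side by side. Of the distinct 75-base words in Cd209f transcripts, 23.5% (533 of 2268) also occur in Cd209g transcripts, and they make up 13.2% of the words of Cd209g. Reads from these stretches could have been split or discarded, and the levels of both genes are uncertain to that extent. Cd209b shared 0 such words with any other gene. Cbr2 shared 8.31% of its words with the gene Gm11771, and the other members shared none. The likeness of Cd209f and Cd209g reaches upstream of the gene. The 250 bases before the RefSeq start of each Cd209 member are given from the RefSeq promoter table (GRCm38.p6), with the longest run shared by Cd209f and Cd209g in capitals.
Cd209f, chr8:4105765-4106014, minus strand: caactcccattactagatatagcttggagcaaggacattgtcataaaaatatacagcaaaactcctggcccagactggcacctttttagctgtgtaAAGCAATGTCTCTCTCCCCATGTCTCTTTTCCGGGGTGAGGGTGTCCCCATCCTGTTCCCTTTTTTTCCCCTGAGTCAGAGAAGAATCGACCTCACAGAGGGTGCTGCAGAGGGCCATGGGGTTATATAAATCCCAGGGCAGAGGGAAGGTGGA
Cd209g, chr8:4134486-4134735, plus strand: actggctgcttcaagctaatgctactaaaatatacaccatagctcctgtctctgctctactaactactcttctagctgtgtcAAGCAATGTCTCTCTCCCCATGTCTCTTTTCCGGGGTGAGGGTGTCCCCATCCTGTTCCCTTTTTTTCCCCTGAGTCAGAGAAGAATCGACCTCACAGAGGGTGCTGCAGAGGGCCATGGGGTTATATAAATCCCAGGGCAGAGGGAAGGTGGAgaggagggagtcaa
Cd209b, chr8:3926842-3927091, minus strand: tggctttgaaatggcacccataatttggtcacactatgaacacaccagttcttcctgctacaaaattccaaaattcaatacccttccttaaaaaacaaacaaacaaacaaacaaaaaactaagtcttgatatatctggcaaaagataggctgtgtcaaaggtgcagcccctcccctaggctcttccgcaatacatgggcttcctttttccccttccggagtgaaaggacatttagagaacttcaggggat

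The run is 154 bases long and identical in both genes, and it ends 1 base before the start of Cd209f and 15 bases before that of Cd209g. It was found in 2 of the 32851 promoters of the table. Cd209b has no comparable stretch, as its longest run in common with either gene is 10 bases. Searched on both strands over the same 250 bases, the AP-1 motif TGAGTCA was in the windows of Cd209f and Cd209g and in 4.46% of all promoters, and the TATA box letters TATAAA were in the same 2 windows and in 12.4% of all promoters. Neither motif was in the Cd209b window, and the PU.1 core GAGGAA, in 23.3% of promoters, was in none of the 3 windows. The GENCODE models of Cd209f and Cd209g begin inside or upstream of these windows, so part of the run is transcribed sequence in that annotation. Of the 10 members, 9 had an entry in the RefSeq table; Lyve1 did not.

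Levels of different genes were compared per kilobase of exon. In PBS hippocampi Stab1, a scavenger receptor, had the highest level of the members at 1.97 ± 0.344 CPM per kb (mean ± SD, n = 5). It was followed by Pf4, a chemokine also stored in platelets, at 0.930 ± 0.355, by the mannose receptor Mrc1 at 0.913 ± 0.329 and by the carbonyl reductase Cbr2 at 0.895 ± 0.368 CPM per kb, which did not differ beyond their spread. The hemoglobin scavenger receptor Cd163 stood at 0.505 ± 0.155, the hyaluronan receptor Lyve1 at 0.416 ± 0.0940 and F13a1, the A chain of coagulation factor XIII, at 0.412 ± 0.0949 CPM per kb, again within their spread. The lectin genes were lowest, with Cd209f at 0.164 ± 0.0580, Cd209g at 0.0454 ± 0.00823 and Cd209b at 0.0430 ± 0.0263 CPM per kb. Stab1 was also first and the Cd209 genes last in PBS cortices, where Mrc1 reached 1.63 ± 0.685 CPM per kb.

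Lyve1 encodes a receptor for hyaluronan, a sugar polymer of the extracellular matrix, and is shared with lymphatic endothelium. In hippocampi it stood at 0.541, 0.169, 0.582 and 0.516 CPM in α-IgLON5#1 mice 8, 9, 16 and 17. The pCtrl hippocampi had 1.27, 1.47, 2.19 and 1.74 CPM in mice 10, 15, 37 and 75, and the PBS hippocampi had 1.06, 1.23, 1.17, 1.66 and 0.942 CPM in mice 14, 32, 33, 38 and 74. All 4 antibody libraries were below all 9 control libraries; 5% of tested genes had this order against pCtrl and 1.14% against PBS. On the log2 scale Lyve1 differed by -1.81 ± 0.32 (SE) against pCtrl and -1.36 ± 0.31 against PBS. These levels rest on 3 to 19 reads per α-IgLON5#1 hippocampus, against 31 to 92 in the controls.

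In cortices the α-IgLON5#1 libraries had 0.516, 0.361, 0.976 and 0.628 CPM of Lyve1 in mice 8, 9, 16 and 17. The pCtrl cortices had 1.66, 0.905, 2.17, 1.51 and 1.73 CPM in mice 10, 11, 15, 37 and 75, and the PBS cortices had 2.04, 1.57, 1.51, 2.36 and 1.18 CPM in mice 14, 32, 33, 38 and 74. The only overlap with the controls was that of α-IgLON5#1 mouse 16 with pCtrl mouse 11, and the order against PBS was shared by 1.26% of tested genes. The difference was -1.35 ± 0.28 against pCtrl and -1.44 ± 0.28 against PBS. Without mouse 9 in both tissues, the values against pCtrl were -1.60 in hippocampi and -1.19 in cortices. All α-IgLON5#1 mice have numbers from 8 to 17, and with the comparison limited to mice in that range the values were -1.54 and -1.35, with 0 of 9 members called in either tissue; Cd209b did not pass the count filter there. In bulk tissue, fewer border macrophages and less Lyve1 RNA per cell cannot be told apart. Lymphatic endothelium also expresses Lyve1. Of 6 genes listed for it 4 were tested and 0 passed in any antibody comparison, with a median log2 fold change against pCtrl of 0.43 in hippocampi and 0.27 in cortices. The list is not particular to these cells in this tissue, with a sum of 72.6 to 246 CPM in control hippocampi and 29.5 to 39.4 CPM in control cortices. Ccl21a was at 0 in every library, but it has near-identical copies with which its reads could be shared. The part of lymphatic endothelium in the Lyve1 values was not tested.

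**Figure D1:**
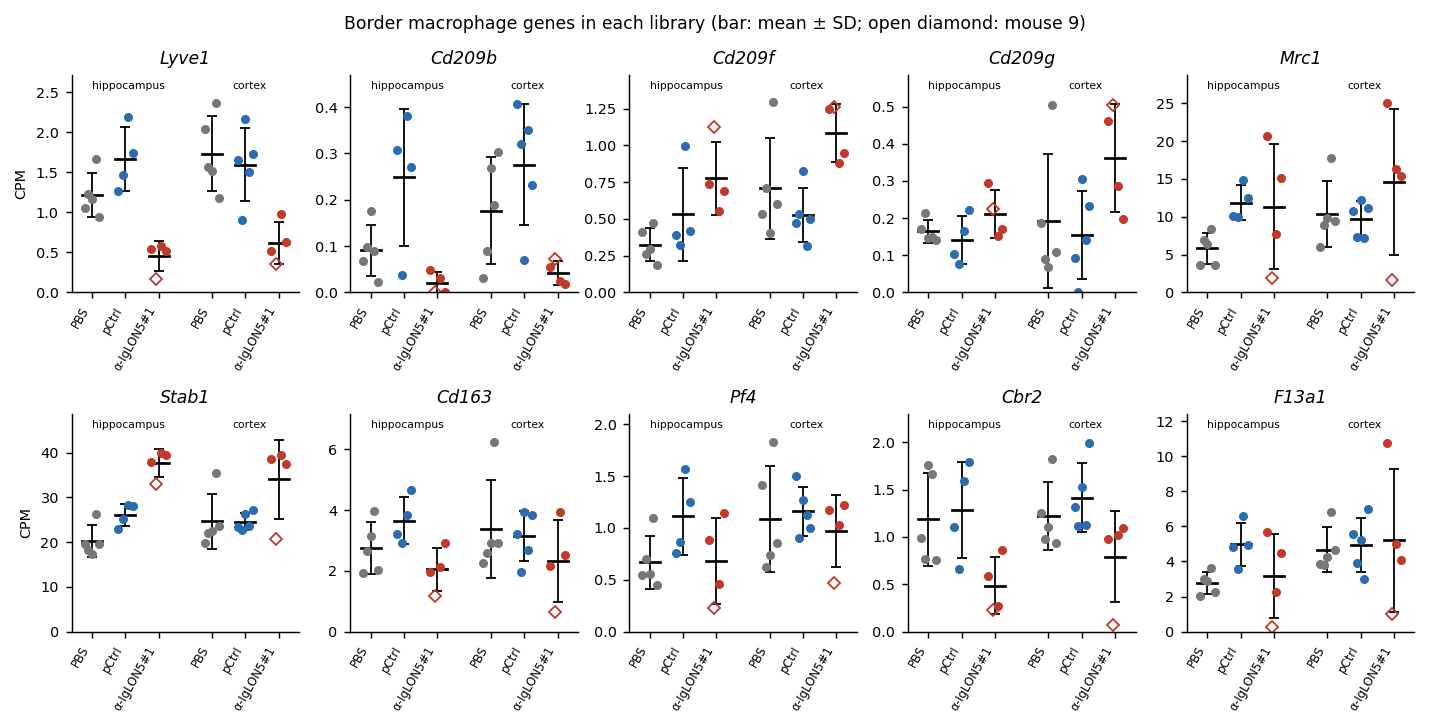
Level of each of the 10 genes in CPM (vertical axes, each starting at 0) in the 27 libraries, by tissue and treatment, with the mean and SD of each group; the open diamond is α-IgLON5#1 mouse 9. The 4 α-IgLON5#1 hippocampi sit below all control hippocampi for Lyve1 and above all of them for Stab1, while Mrc1 in α-IgLON5#1 libraries ranges from the lowest to the highest value of each tissue.

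The log2 fold change against pCtrl was negative for 7 of the 10 members in hippocampi and for 5 in cortices, and against PBS for 4 and 5. In the fit across all genes, 2 of the 10 members, Lyve1 and Cd209b, were among the genes called lower against pCtrl in the hippocampus and the same 2 in the cortex, at an adjusted p under 0.05 in edgeR's quasi-likelihood test. Over all 20271 genes tested, 2.78% were called lower in the hippocampus and 0.449% in the cortex. In the same comparisons 0 members were called higher, against 4.23% and 3.01% of all genes. Against PBS the members called were Lyve1, lower in both tissues, and Stab1, higher in the hippocampus, where 0.474% of all genes were called lower and 3.81% higher; in the cortex the shares were 0.074% and 2.97%. Lyve1 was the gene for which the set was chosen, so its call restates the choice, and the other calls come from the same comparisons. Over the 10 members the median log2 fold change against pCtrl was -0.64 in hippocampi and -0.08 in cortices, and that of all genes was 0.00 and -0.01. Against PBS it was 0.14 in hippocampi and 0.01 in cortices, and that of all genes was -0.01 and -0.02.

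Cd209b encodes a lectin that binds sugars on microbes and on sialylated proteins. Its reads were few, and the α-IgLON5#1 hippocampi had lower total counts than the pCtrl hippocampi. The 4 α-IgLON5#1 hippocampi held 1, 0, 1 and 0 reads in mice 8, 9, 16 and 17, the pCtrl hippocampi 15, 2, 16 and 11 and the PBS hippocampi 2, 6, 6, 3 and 1. The α-IgLON5#1 cortices held 2, 2, 1 and 1 reads, the pCtrl cortices 13, 6, 3, 10 and 7 and the PBS cortices 1, 3, 8, 6 and 11. No α-IgLON5#1 library had more than 2 reads, and control libraries reached as low as 1. The mean level was 0.0200 ± 0.0243 CPM in α-IgLON5#1 and 0.249 ± 0.148 CPM in pCtrl hippocampi (SD, n = 4 each), and 0.0421 ± 0.0256 (n = 4) and 0.276 ± 0.131 CPM (n = 5) in cortices. The fitted log2 fold change against pCtrl was -3.46 ± 0.92 in hippocampi and -2.71 ± 0.72 in cortices, and against PBS it was -2.06 ± 1.06 and -2.13 ± 0.75. Cd209b was no longer called lower in hippocampi without any one of mice 9, 10, 17 and 37, nor in cortices without any one of mice 8, 10, 11, 16, 17 and 37. Its log2 fold change was -4.03 to -2.96 in hippocampi and -3.01 to -2.40 in cortices over single libraries left out, and -3.23 in hippocampi without mouse 9. DESeq2 gave it no adjusted p in hippocampi.

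The other lectin genes did not share this pattern. Cd209f stood at 0.738, 1.13, 0.552 and 0.688 CPM in the α-IgLON5#1 hippocampi of mice 8, 9, 16 and 17, at 0.320 to 0.999 CPM in pCtrl hippocampi and at 0.188 to 0.475 CPM in PBS hippocampi. All 4 antibody libraries were above all PBS libraries, as in 4.49% of tested genes, and overlapped with pCtrl. In the cortex it stood at 1.25, 1.26, 0.881 and 0.950 CPM with α-IgLON5#1, above all 5 pCtrl cortices (0.316 to 0.824 CPM), while PBS mouse 38 had 1.29 CPM. The log2 fold change against pCtrl was 0.52 ± 0.37 in hippocampi and 1.00 ± 0.34 in cortices. Leaving out single libraries moved the hippocampal value of Cd209f from 0.31, without mouse 9, to 1.01, without pCtrl mouse 37, and gave 0.87 to 1.25 in cortices. Cd209g, with at most 17 reads in any library, gave 0.55 ± 0.58 and 1.02 ± 0.49, with ranges of 0.33 to 0.84 and 0.80 to 1.45, and its groups overlapped in every comparison. Among tested genes, 3.68% had all α-IgLON5#1 cortices above all pCtrl cortices. Of the 4 other genes of the family, Cd209a alone had enough reads to be tested, and its level was 0.355 CPM in α-IgLON5#1 and 0.642 CPM in pCtrl hippocampi, which did not pass the test.

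Stab1 had a positive log2 fold change in all 4 antibody comparisons and was called higher in 1 of them. It encodes a large scavenger receptor that takes up modified lipoproteins and the matrix protein SPARC. The α-IgLON5#1 hippocampi had 38.0, 33.1, 39.8 and 39.5 CPM in mice 8, 9, 16 and 17, the pCtrl hippocampi 22.9, 25.1, 28.3 and 27.97 CPM and the PBS hippocampi 19.6, 18.2, 17.4, 26.4 and 19.6 CPM. All 4 antibody libraries lay above all 9 controls, mouse 9 included; 6.68% of tested genes had this order against pCtrl. In the cortex mice 8, 16 and 17 had 38.6, 39.4 and 37.3 CPM, above the 22.6 to 27.2 CPM of pCtrl and the 19.9 to 35.4 CPM of PBS, whereas mouse 9 had 20.7 CPM. In hippocampi the log2 fold change was 0.53 ± 0.17 against pCtrl and 0.90 ± 0.16 against PBS, and in cortices it was 0.47 ± 0.16 against either control. A setting without both libraries of mouse 9 was chosen after the values were seen. In it Stab1 passed the threshold in all 4 antibody comparisons, with log2 fold changes of 0.58 to 0.94. Without the hippocampal library of mouse 9 alone, Stab1 was not called against pCtrl in hippocampi, at 0.58.

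Mrc1 encodes the mannose receptor CD206, which binds glycoproteins with exposed mannose. Its antibody libraries spread widely. The α-IgLON5#1 hippocampi of mice 8, 16 and 17 had 20.7, 7.66 and 15.1 CPM, and mouse 9 had 1.86 CPM, below every other hippocampus; the pCtrl hippocampi had 10.2, 9.98, 14.8 and 12.5 CPM. In cortices mice 8, 16 and 17 had 24.999, 16.3 and 15.4 CPM and mouse 9 had 1.66 CPM, against 7.13 to 12.2 CPM in pCtrl and 6.01 to 17.7 CPM in PBS. The log2 fold change against pCtrl was -0.06 ± 0.51 in hippocampi and 0.59 ± 0.48 in cortices, and without mouse 9 it was 0.27 and 0.95; without mouse 8 it was -0.49 and 0.21. Against PBS it was 0.97 ± 0.49 in hippocampi. There Mrc1 was called higher without both libraries of mouse 9, at 1.29. It was not called without the hippocampal library of mouse 9 alone, also at 1.29. The mean of the other 3 α-IgLON5#1 libraries was 249% of the PBS mean in hippocampi and 182% in cortices, while mouse 9 stood at 32.0% and 16.0%.

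Cd163, the receptor for hemoglobin bound to haptoglobin, leaned the same way as Lyve1 with a smaller difference. It stood at 1.97, 1.18, 2.15 and 2.92 CPM in the α-IgLON5#1 hippocampi of mice 8, 9, 16 and 17 and at 2.91 to 4.67 CPM in pCtrl hippocampi. Only the value of mouse 17 reached the pCtrl range. In cortices the α-IgLON5#1 values were 0.650 to 3.95 CPM and the pCtrl values 1.97 to 3.96 CPM; mice 8, 16 and 17 lay within the pCtrl range and mouse 9, at 0.650 CPM, below it. Against pCtrl the log2 fold change was -0.80 ± 0.37 in hippocampi and -0.42 ± 0.34 in cortices, and -0.63 and -0.14 without mouse 9. Over single libraries left out it ranged from -1.02 to -0.63 in hippocampi and from -0.78 to -0.14 in cortices.

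Cbr2, which encodes a reductase of carbonyl compounds, had negative log2 fold changes in all 4 antibody comparisons. Its level was 0.591, 0.225, 0.276 and 0.860 CPM in the α-IgLON5#1 hippocampi of mice 8, 9, 16 and 17, against 1.104, 0.658, 1.59 and 1.79 CPM in pCtrl and 0.754 to 1.76 CPM in PBS. In the cortex it was 0.978, 0.0722, 1.02 and 1.09 CPM with α-IgLON5#1 and 1.12 to 1.995 CPM with pCtrl, so that all 4 antibody libraries lay below all 5 pCtrl libraries; 2.67% of tested genes had this order. The cortical values of mice 8, 16 and 17 were just below the lowest pCtrl library. For Cbr2 the log2 fold change against pCtrl was -1.33 ± 0.47 in hippocampi and -0.79 ± 0.41 in cortices. Without mouse 9 it was -1.14 and -0.46. Cbr2 was called lower against pCtrl in hippocampi with DESeq2 and on leaving out pCtrl mouse 15 or α-IgLON5#1 mouse 17.

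Pf4 and F13a1 encode secreted or releasable proteins that platelets also hold. Pf4 stood at 0.225 to 1.15 CPM in α-IgLON5#1 and 0.756 to 1.57 CPM in pCtrl hippocampi. Its log2 fold change against pCtrl was -0.65 ± 0.39 in hippocampi and -0.24 ± 0.35 in cortices, and -0.41 and -0.04 without mouse 9. Leaving out single libraries gave -1.07 to -0.41 in hippocampi and -0.37 to -0.04 in cortices. F13a1 stood at 5.66, 0.282, 2.27 and 4.47 CPM in the α-IgLON5#1 hippocampi of mice 8, 9, 16 and 17 and at 10.8, 1.01, 5.0002 and 4.07 CPM in their cortices, against 3.59 to 6.57 CPM and 2.98 to 7.02 CPM in pCtrl. The groups overlapped for both genes in all antibody comparisons. Against PBS the log2 fold change of Pf4 was 0.07 ± 0.39 in hippocampi and -0.14 ± 0.35 in cortices. That of F13a1 against PBS was 0.21 ± 0.47 and 0.16 ± 0.45, so neither gene was lower than PBS in hippocampi. The log2 fold change of F13a1 against pCtrl was -0.63 ± 0.49 in hippocampi and 0.08 ± 0.45 in cortices, and without mouse 9 it was -0.28 and 0.41; without mouse 8 it was -1.002 and -0.53. Of 9 platelet and megakaryocyte genes 4 were tested, and 0 passed in any antibody comparison.

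**Figure D2:**
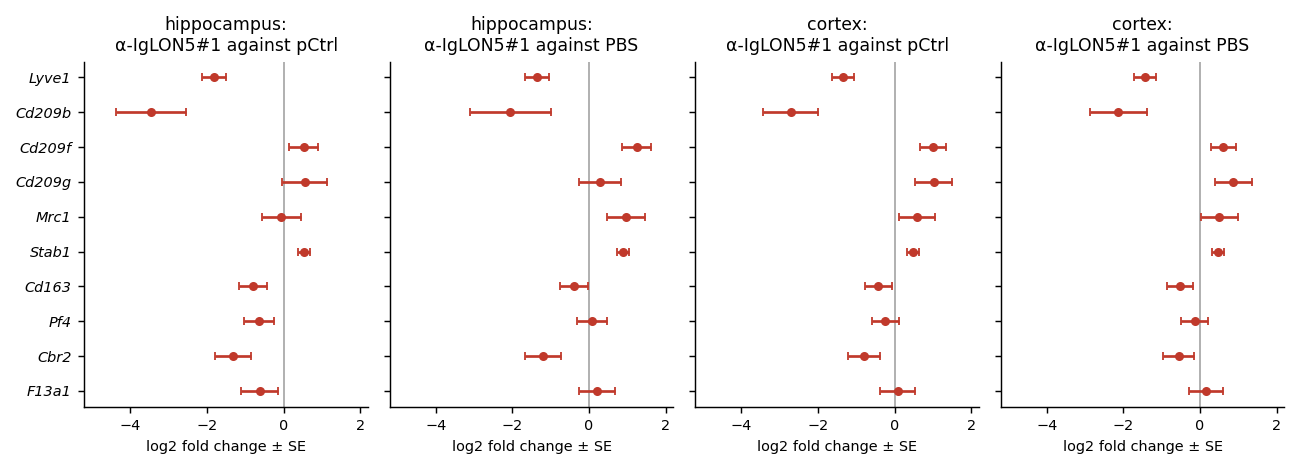
Log2 fold change of each member with α-IgLON5#1 (horizontal axes; points, with bars for the SE) against pCtrl and against PBS in hippocampi and cortices. Lyve1, Cd209b, Cd163 and Cbr2 lie left of 0 and Cd209f, Cd209g and Stab1 right of 0 in all 4 panels; the comparisons in a tissue share the α-IgLON5#1 libraries.

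The members differed in mouse 9. In hippocampi 6 of the 10 members, Lyve1, Mrc1, Cd163, Pf4, Cbr2 and F13a1, had their lowest value of the 13 libraries in mouse 9, and the same 6 had their lowest value of the 14 cortices there. F13a1 stood at 10.1% of the PBS mean in the hippocampus of mouse 9, against 149% in the mean of the other 3 α-IgLON5#1 mice, and Cbr2 at 5.91% in its cortex, against 84.6%. Stab1 and Cd209f were not low in its hippocampus, at 163% and 346% of the PBS mean. The low values went with low meningeal fibroblast genes in the same libraries, and their part in the result was not tested.

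Lyve1 was set against Mrc1 within each library, a ratio that does not depend on library scaling. There were 12.5 to 14.8 Lyve1 reads per 100 Mrc1 reads in pCtrl hippocampi and 17.6 to 28.7 in PBS hippocampi. The α-IgLON5#1 hippocampi had 2.62, 9.09, 7.60 and 3.41 in mice 8, 9, 16 and 17, all below the controls. On this ratio 0.173% of tested genes were below all pCtrl hippocampi and 0.597% below all PBS hippocampi. The hippocampus of mouse 9 had 33 Mrc1 reads, which raises the ratio of every gene not as low as Mrc1 there. These shares are small partly for that reason, and nothing is read from them. In cortices mice 8, 16 and 17 had 2.07, 5.98 and 4.08 Lyve1 reads per 100 Mrc1 reads, below the 12.3 to 33.9 of all control cortices, while mouse 9 had 21.7, from 10 Lyve1 and 46 Mrc1 reads. The low Lyve1 of mice 8, 16 and 17 came with Mrc1 levels within or above the range of the controls, and that of mouse 9 came with low Mrc1.

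The same ratio was lower for some other members and not for all. Cbr2 had 2.86 to 12.1 reads per 100 Mrc1 reads in α-IgLON5#1 and 6.59 to 14.3 in pCtrl hippocampi, and 3.91 to 7.11 against 12.2 to 17.8 in cortices, where the ranges did not overlap, as for 0.118% of tested genes. F13a1 had 15.2 to 29.6 in α-IgLON5#1 and 36.0 to 47.3 in pCtrl hippocampi, also without overlap, as for 0.173% of tested genes. In cortices F13a1 overlapped, with 26.5 to 60.9 against 41.9 to 62.6. Cd163 overlapped in both tissues, in cortices through mouse 9 alone: mice 8, 16 and 17 had 8.70, 24.2 and 16.4 Cd163 reads per 100 Mrc1 reads and mouse 9 had 39.1, from 18 Cd163 reads, against 26.8 to 37.9 in pCtrl. The shares of genes depend in the same way on the few Mrc1 reads of mouse 9, 46 in its cortex. These ratios use the antibody comparison and are a description.

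**Figure D3:**
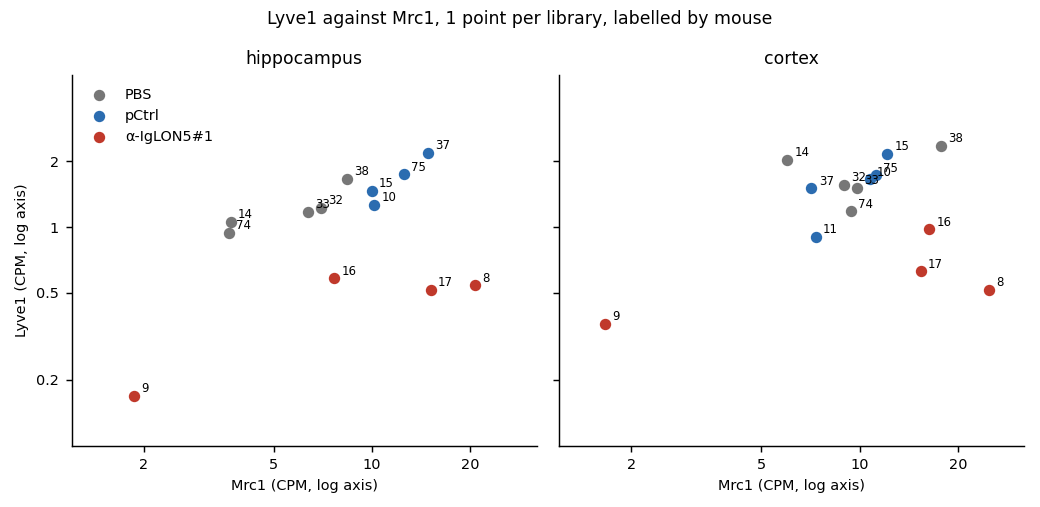
Lyve1 level (vertical axis, CPM) against Mrc1 level (horizontal axis, CPM), both on log axes, with 1 point per library labelled by mouse number, in hippocampi and cortices. The PBS and pCtrl points form a band; α-IgLON5#1 mice 8, 16 and 17 lie below it at similar or higher Mrc1, and mouse 9 lies at the lowest Mrc1 and Lyve1 of both tissues.

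Control antibody was compared with PBS to see how the members respond to infused IgG that does not target IgLON5, a comparison that the choice of members did not use. In hippocampi 9 of 10 members had a positive log2 fold change and 0 passed, while 0.133% of all tested genes passed as higher and 0.0592% as lower; 2828 genes had an unadjusted p under 0.05. The 3 members with an unadjusted p under 0.05 were Cd209b at 1.40 ± 0.58 (edgeR adjusted p = 0.254), Mrc1 at 1.02 ± 0.48 (edgeR adjusted p = 0.339) and Stab1 at 0.36 ± 0.16 (edgeR adjusted p = 0.282). Mrc1 was higher in all 4 pCtrl hippocampi, at 9.98 to 14.8 CPM, than in all 5 PBS hippocampi, at 3.65 to 8.40 CPM, an order found in 1.87% of tested genes. Meningeal fibroblast genes leaned the same way, with 9 of 10 positive, a median log2 fold change of 0.50 and 0 passing, and their summed level was 263 to 325 CPM in pCtrl and 128 to 352 CPM in PBS hippocampi. Of the 5 hippocampal markers, 5 had a negative log2 fold change in the same comparison, with a median of -0.60, and of the 5 cortical markers 4 had a positive one, with a median of 0.33; 0 of either list passed. The part of the fibroblast genes and of the tissue markers in the members' values was not tested. In cortices 4 of 10 members were positive, 0 passed, and 0 had an unadjusted p under 0.05; over all genes 0 passed in either direction with edgeR, and 1650 had an unadjusted p under 0.05. DESeq2 called 0 members in either tissue. Lyve1 itself differed by 0.45 ± 0.26 in hippocampi and -0.09 ± 0.25 in cortices.

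The tissues were compared in PBS mice to describe where the members were more abundant without antibody. All 10 had a positive log2 difference of cortex against hippocampus, with a median of 0.60, and 1 passed, Cd209f, at 1.15 ± 0.35 (edgeR adjusted p = 0.0138). Over all genes 14.1% passed as higher in the cortex. Cd209f stood at 0.403 to 1.29 CPM in PBS cortices and 0.188 to 0.475 CPM in PBS hippocampi, and it no longer passed without the cortex of PBS mouse 38, at 0.83. Over the alternatives its adjusted p ranged from 0.00787 with DESeq2 to 0.0736 without that library. With the mouse as a block, which compares the tissues within each animal, 5 members passed as higher in the cortex: Cd209f at 1.12, Mrc1 at 0.82, F13a1 at 0.74, Lyve1 at 0.49 and Stab1 at 0.27 on the log2 scale. In the same fit 14.3% of all tested genes passed as higher in the cortex. F13a1 was higher in all 5 cortices than in all 5 hippocampi, an order shown by 9.19% of tested genes. Of 10 meningeal fibroblast genes 7 had a positive difference, with a median of 0.32, while 0 passed as higher and 2 as lower in the cortex; their part in the members' difference was not tested.

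Whether the effect of the antibody differed between tissues was tested as an interaction of tissue and treatment against pCtrl. The difference was negative, that is, lower in the hippocampus than in the cortex, for 9 of 10 members, from -0.74 for Cd209b to -0.37 for Cd163, and 0.06 for Stab1, and 0 members passed in edgeR. The Lyve1 value was -0.46 ± 0.43 (edgeR adjusted p = 0.75), and -0.41 without mouse 9 (edgeR adjusted p = 0.882). Among all genes 0 passed, and 2158 had an unadjusted p under 0.05. A difference between tissues was not detectable for any member with these libraries.

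How far the members varied together within groups was described by correlation. Correlations were taken over the 27 libraries on deviations of log2 CPM from the 6 group means, so that differences between groups do not enter; libraries of a mouse share the animal, and genes of a library share its dissection. The 7 genes Lyve1, Mrc1, Stab1, Cd163, Pf4, Cbr2 and F13a1 were positively correlated in every pair, with and without the 2 libraries of mouse 9. Mrc1 and F13a1 had the highest correlation (Pearson r = 0.942), and it was 0.872 over the 25 libraries without mouse 9. Stab1 and Cd163 had r = 0.864, and 0.751 without mouse 9, and Cd163 and Cbr2 had r = 0.849, and 0.660 without it. Lyve1 and Cd163 had r = 0.768, and 0.726 without mouse 9. The correlation of Lyve1 with Pf4 was 0.764 with and 0.578 without it, that with Mrc1 was 0.700 and 0.386, and that with F13a1 was 0.689 and 0.237.

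The place of the Cd209 genes depended on mouse 9. Cd209f had r of at most 0.315 with the 7 genes over all libraries and 0.446 to 0.628 without mouse 9. Cd209g had r of 0.111 to 0.384 over all libraries and 0.438 to 0.649 without mouse 9. Cd209f and Cd209g had r = 0.424 with each other, and 0.421 without mouse 9. Cd209b had r between -0.06 and 0.19 with the other members, and between -0.16 and 0.33 without mouse 9, which its few reads limit.

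**Figure D4:**
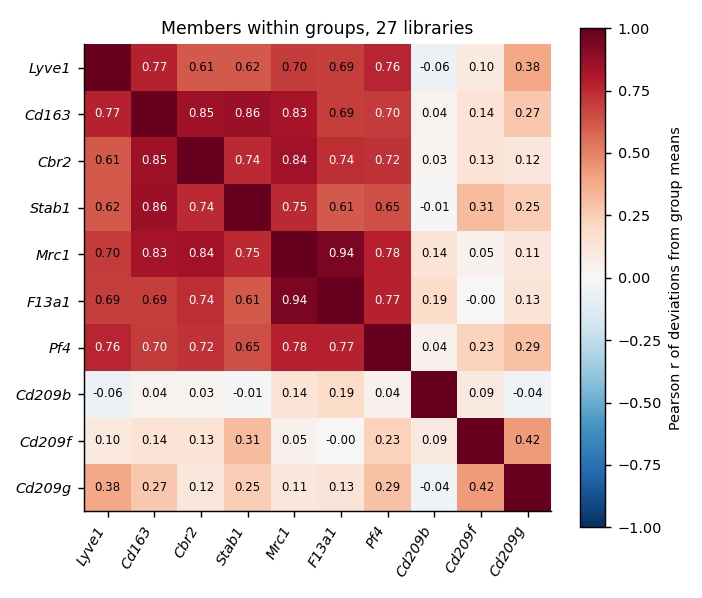
Pearson correlation (color, from -1 to 1, with the value in each cell) between members over 27 libraries, on deviations of log2 CPM from group means. The 7 genes from Lyve1 to Pf4 form a block of positive values, and Cd209b, Cd209f and Cd209g have lower values with them; for Cd209f and Cd209g the values without mouse 9 were higher, at 0.438 to 0.649.

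The members were also set beside the meningeal fibroblast genes. Over the 27 libraries, on the same deviations, the correlation with the summed fibroblast list was r = 0.922 for Mrc1, 0.867 for F13a1, 0.811 for Cd163, 0.787 for Pf4, 0.778 for Cbr2, 0.703 for Stab1 and 0.691 for Lyve1. Without mouse 9 it was 0.888 for Mrc1, 0.684 for F13a1, 0.712 for Cd163, 0.601 for Pf4, 0.695 for Cbr2, 0.599 for Stab1 and 0.384 for Lyve1. The correlation was 0.0957 for Cd209f, 0.229 for Cd209g and 0.17 for Cd209b over all libraries, and 0.483, 0.488 and 0.222 without mouse 9. The members other than the Cd209 genes also varied with other lists. With endothelium r was 0.496 to 0.706, and 0.181 to 0.536 without mouse 9. With homeostatic microglia r was -0.743 to -0.235, and -0.567 to -0.0721 without mouse 9. With choroid plexus epithelium r was 0.195 to 0.552, and with monocytes 0.134 to 0.585. Without mouse 9 these were 0.0772 to 0.405 and -0.22 to 0.535. The fibroblast sum was lowest in mouse 9 and highest, at 419 CPM, in the cortex of PBS mouse 38, which also had the highest Stab1, Cd163, F13a1 and Lyve1 of the PBS cortices. How much meningeal tissue each dissection held was not recorded in the sources used here, and its part in the members' spread was not tested. Of the 10 fibroblast genes 0 passed in any antibody comparison, with median log2 fold changes against pCtrl of -0.26 in hippocampi and -0.02 in cortices. With the fibroblast sum as a covariate in edgeR, chosen after the values were seen, the log2 fold change against pCtrl in hippocampi was -1.63 for Lyve1, -3.37 for Cd209b, -1.05 for Cbr2, -0.46 for Cd163, -0.43 for Pf4 and -0.38 for F13a1. It was 0.26 for Mrc1, 0.58 for Cd209f, 0.68 for Cd209g and 0.70 for Stab1, so that the 6 negative values were closer to 0 than without the covariate and that of Mrc1 changed sign. In cortices it was 0.28 for Mrc1 and -0.15 for F13a1, against 0.59 and 0.08 without the covariate. There the values that were negative without the covariate moved further from 0. They were -1.38 for Lyve1, -2.74 for Cd209b, -0.95 for Cbr2, -0.50 for Cd163 and -0.34 for Pf4. Without the covariate they were -1.35, -2.71, -0.79, -0.42 and -0.24. The cortical values with the covariate were 1.00 for Cd209f, 1.03 for Cd209g and 0.44 for Stab1.

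**Figure D5:**
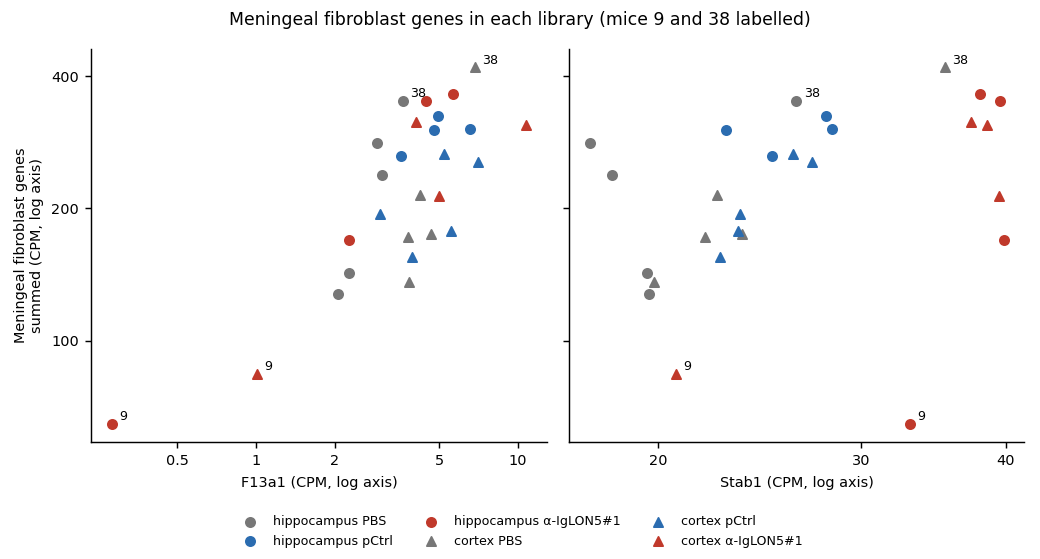
Summed level of 10 meningeal fibroblast genes (vertical axis, CPM) against F13a1 and against Stab1 (horizontal axes, CPM), all on log axes, 1 point per library, circles for hippocampi and triangles for cortices. Both libraries of mouse 9 have the lowest fibroblast sums, 64.7 and 84.0 CPM, together with the lowest F13a1 of all libraries, whereas Stab1 in the hippocampus of mouse 9 is above all control hippocampi.

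Other genes of border macrophages were tested in the same comparisons, first against pCtrl. Of 20 other border macrophage genes 16 were tested; Ms4a7, a tetraspan protein of these cells, rose in the hippocampus, from 1.04 to 3.98 CPM against pCtrl (log2 fold change 1.94 ± 0.37, edgeR adjusted p = 0.00127), and the other 15 did not pass. In the cortex 3 rose: Ms4a7, from 0.902 to 3.59 CPM, the lectin Clec4n, from 0.309 to 1.33 CPM, and Siglec1, a receptor for sialic acid, from 0.617 to 2.76 CPM. The median over the 16 was 0.03 in hippocampi and 0.21 in cortices. Against PBS 3 of the 16 rose in each tissue. A list of 8 genes for the population with high MHC class II holds antigen presentation genes and also the lectin receptors Clec12a and Clec4e, Ccr2 and Klra2. Of these 8 genes 3 rose in hippocampi, Clec12a, Clec4e and, of the antigen presentation genes, Cd74, and 5 rose in cortices, among them Clec12a, Clec4e and H2-Aa, with medians of 1.89 and 2.12. Against PBS 7 of the 8 rose in hippocampi and 8 in cortices, with medians of 2.45 and 2.50. Cd74, the invariant chain, stood at a mean of 44.2 CPM in α-IgLON5#1 and 11.3 CPM in pCtrl hippocampi (edgeR adjusted p = 0.0472). The rise of the list was uneven. Its 8 genes summed to 219.5, 35.0, 63.8 and 162.3 CPM in the α-IgLON5#1 hippocampi of mice 8, 9, 16 and 17. The pCtrl hippocampi had 17.6 to 61.3 CPM, a range that holds mouse 9. In cortices the sums were 63.7 to 192 CPM with α-IgLON5#1 and 14.6 to 48.8 CPM with pCtrl. These genes are also expressed by activated microglia, monocytes and dendritic cells, so they are not specific to border macrophages.

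Of 10 tested genes for growth factors, receptors and transcription factors of macrophages, 5 rose and 1 fell in hippocampi against pCtrl. Among them were Spi1, which encodes PU.1, at 1.78 ± 0.27 (edgeR adjusted p = 0.000116), the growth factor receptor gene Csf1r at 0.72 ± 0.11 (edgeR adjusted p = 0.000113) and Il10ra. The glucocorticoid receptor gene Nr3c1, named after its value was seen, fell by 0.27 on the log2 scale. In cortices 4 rose, Spi1 and Il10ra among them, and the medians were 0.65 and 0.36. Against PBS 6 rose in hippocampi, 4 rose in cortices and 0 fell. Csf1r is mainly a microglial transcript in brain tissue, and of 10 homeostatic microglial genes 5 rose against pCtrl in hippocampi (Cx3cr1, Olfml3 and Fcrls among them) and 0 in cortices, while against PBS 5 rose in hippocampi and 3 in cortices. Their summed level was 339 to 568 CPM in α-IgLON5#1 and 276 to 318 CPM in pCtrl hippocampi, highest in mouse 9. Of 7 monocyte genes tested, Ly6c2 rose against pCtrl in hippocampi, from 0.0828 to 1.26 CPM, and 5 rose in cortices, Ly6c2, Plac8 and Ccr2 among them; against PBS 3 rose in hippocampi and 5 in cortices. Their summed level was highest in α-IgLON5#1 mouse 8, at 54.1 CPM in the hippocampus and 68.1 CPM in the cortex, against 27.5 to 31.96 CPM and 27.97 to 29.2 CPM in the other 3 α-IgLON5#1 mice, 24.3 to 31.8 CPM in pCtrl hippocampi and 22.3 to 26.2 CPM in pCtrl cortices. In PBS mice the sum was 28.2 to 33.4 CPM in hippocampi and 24.7 to 29.4 CPM in cortices.

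The partners and relatives of the members mostly did not pass against pCtrl. Among 9 tested genes of hyaluronan synthesis, breakdown and reception, 0 passed in hippocampi and 1 in cortices, the hyaluronan receptor Cd44, at 1.54 ± 0.44 (edgeR adjusted p = 0.0481). Among 8 genes that handle hemoglobin and heme, 0 passed in hippocampi and Hmox1, heme oxygenase, rose in cortices at 1.47 ± 0.34 (edgeR adjusted p = 0.0108). Among the 3 relatives of Mrc1, Ly75 rose in cortices at 0.65 ± 0.18 (edgeR adjusted p = 0.04). Of 7 glucocorticoid response genes, tested because glucocorticoids are known to induce Cd163, Nfkbia rose in cortices and 0 passed in hippocampi. Against PBS, 0 genes of hyaluronan and 0 relatives of Mrc1 passed in either tissue, and 1 hemoglobin gene and 1 glucocorticoid response gene rose in each tissue. Lists for choroid plexus epithelium (8 tested), endothelium (8), mural cells (6), erythrocytes (5) and neurons (5) had 0 genes passing against pCtrl in either tissue, nor did the 5 hippocampal markers. Of the 5 cortical markers 1, Rorb, was lower in α-IgLON5#1 than in pCtrl cortices, at -0.51 ± 0.13 (edgeR adjusted p = 0.0229).

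Lyve1 was also compared with every gene of at least 1 CPM on average. Among 15233 genes, with log2 CPM centered within each tissue over the 27 libraries, those most like it outside the set were Snx14 (Pearson r = 0.841), a sorting nexin, Lrrc75b (0.803), Sesn3 (0.787), Sos2 (0.779) and Slc38a1 (0.777). This likeness includes the difference between treatments. On deviations from the group means, r was 0.75 for Snx14 and 0.44 for Sesn3. The closest members were Cd163, which ranked 8 with r = 0.770, and Cbr2, which ranked 9 with r = 0.768, whereas Cd209f and Stab1 were negatively correlated, at -0.461 and -0.382.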

How the data were processed

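Counts of reads per gene, as the authors deposited them, came from paired-end stranded mRNA libraries aligned to GRCm38 with STAR, per the methods; the counting program and its strand setting are not given in the sources used here. No column was left unassigned. The members and gene lists were chosen with earlier results of these data known.

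Genes reaching 10 counts in 4 or more libraries (20271 of 55487) were fitted with edgeR 4.0.16 in R 4.3.3 (TMM scaling, quasi-likelihood test, 27 libraries in 6 groups). A gene was called at a Benjamini-Hochberg adjusted p under 0.05 over all tested genes. CPM were counts per 1000000 counts of the scaled library size, and log2 CPM for correlations had a prior count of 1. DESeq2 1.42.0, another normalization, other count filters, only the groups compared, a fold threshold of 2, mice 8 to 17, each library left out, the mouse as a block, mouse 9 left out and a fibroblast covariate were alternatives, the last pair chosen after seeing the data. The scripts were tested on simulated counts. The members were named by their list. Of each other list, at most 4 genes that passed against pCtrl were named, by smallest p in the hippocampus (a few that the rule names are not reported here), and the 5 genes most like Lyve1 were named among those with a mean of at least 1 CPM.

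Mice were separate animals, and the same number with the same treatment in both tissues was taken as the same mouse, as 13 of 14 mice had. Deviations from the group means correlated between the tissues of a mouse at -0.0498 to 0.443 (median 0.194), above 0.1 in 8 of 13 mice. No libraries of a group agreed within sampling noise (over 48 pairs, chi-square per degree of freedom was 4.44 or more). Depth limited Cd209b and Cd209g most, with at most 17 counts per library.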

Additional observations from a re-analysis of the deposited data

Results flagged for a closer look

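Of 60 member and group combinations with 4 or 5 libraries, 9 had a library set apart from the rest of its group. Its gap was large for the group's range, as chance gives in about 1 in 20 groups. The combinations share libraries and are not independent, so the count of 9 cannot be set against that rate. PBS mouse 38 accounted for 5 of them, all high: Stab1 at 26.4 CPM in its hippocampus (next value 19.6) and, in its cortex, Stab1 at 35.4 CPM (next 23.6), Cd163 at 6.24 CPM (next 2.92), F13a1 at 6.84 CPM (next 4.67) and Cd209g at 0.504 CPM (next 0.188). α-IgLON5#1 mouse 9 accounted for 3, all low: Lyve1 at 0.169 CPM in its hippocampus (next value 0.516), and Stab1 at 20.7 CPM (next 37.3) and Cbr2 at 0.0722 CPM (next 0.978) in its cortex. The last was Cd209f in the hippocampus of pCtrl mouse 37, at 0.999 CPM (next 0.417). The summed meningeal fibroblast genes were highest of all libraries in the cortex of mouse 38 and lowest in both libraries of mouse 9, and their part in these values was not tested.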

How the results depend on the processing

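Of 653 single member values under an alternative, 649 stayed on their side of the threshold or within the spread between replicates; in the antibody comparisons this refers to the size of the log2 fold change and not to calls, which moved for several members. Of the counts of members and the Lyve1 values, 279 did so and 40 counts moved. In the antibody comparisons a change of direction was looked for only in members called in the main fit, and none had one. Members not called changed sign over single libraries left out. Against pCtrl, F13a1 ran from -0.53 to 0.41 in cortices and Mrc1 from -0.49 to 0.27 in hippocampi. Pf4 against PBS in hippocampi ran from -0.35 to 0.30.

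Against pCtrl in hippocampi, 1 member passed as higher, Stab1, in place of 0 with only the groups compared and with DESeq2. Stab1 also did so without mouse 9 in both tissues and with the fibroblast covariate. The count of 2 lower members became 1 with only the groups compared and without mouse 9, and 0 for mice 8 to 17 and with at least 10 counts in every library, a filter that left 3 members. Leaving out single libraries gave 1 to 3 lower members, with 1 without mice 9, 10 or 37. Against PBS in hippocampi the count of 1 higher member became 0 with the fold threshold. It became 2 without mouse 9 in both tissues and with the covariate, adding Mrc1, and 2 with DESeq2, adding Cd209f. Single libraries left out gave 1 to 2 (2 without PBS mouse 38 or α-IgLON5#1 mouse 16, adding Cd209f). The count of 1 lower became 0 with the stricter filter and 2 with the covariate, adding Cbr2.

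Against pCtrl in cortices Stab1 passed as higher (1 in place of 0) without mouse 9 and with the covariate, and single libraries gave 0 to 1. The count of 2 lower became 1 with only the groups compared and 0 for mice 8 to 17 and the stricter filter, and single libraries gave 1 to 2, with 1 without pCtrl mice 10, 11 or 37 or α-IgLON5#1 mice 8, 16 or 17. Against PBS in cortices 1 passed as higher in place of 0 without mouse 9 and with the covariate, 0 to 1 over single libraries (1 without PBS mouse 38), and the 1 lower became 0 with the stricter filter. The cause of these moves was not tested, except that the stricter filter removed Lyve1 and Cd209b, and that Cd209b did not pass the count filter for mice 8 to 17 or with only the groups compared.

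In PBS mice the count of 1 member higher in the cortex became 5 with the mouse as a replicate block, 3 with only the groups compared, 0 with the stricter filter and 0 to 1 over single libraries (0 without mouse 38). The block changed no call of the interaction. The log2 fold change of Lyve1 against pCtrl ranged over single libraries from -1.95 to -1.60 in hippocampi and from -1.63 to -1.19 in cortices, highest without mouse 9. Mice 8 to 17 gave no comparison with PBS in these settings.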
